A study of Mus musculus with 2 samples.

Results

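The transporters of the ABC family, the bile acid carriers and the organic ion carriers were examined in liver of mice given squalene. The members are all genes whose platform symbol belongs to the Abca to Abcg, Slco, Slc10a or Slc22a families and that have a probe set with exactly 1 symbol. There were 69 such genes among 12393 genes on the arrays, with 115 probe sets: 36 Abc, 11 Slco, 4 Slc10a and 18 Slc22a genes. Squalene is a triterpene intermediate of cholesterol synthesis. The squalene pool came from male apolipoprotein E-deficient mice of the C57BL/6J/ OLA129 background, on chow with a drink of 1% glycerol that delivered 1 g of squalene per kg per day for 10 weeks. The control pool came from male mice of the same genotype and background with the same chow and glycerol drink, without squalene. Mice of both pools were labelled as 2 months old, and the livers were rinsed of blood and frozen. All animals lacked apolipoprotein E, the ligand by which remnant lipoproteins are cleared, so nothing here compares the genotype with wild type.

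Hepatocytes take bile acids, hormones and drugs from blood through carriers of the Slc10a, Slco and Slc22a families on the sinusoidal face, and ABC pumps move bile salts, phospholipid, sterols and conjugates into bile at the canalicular face. Other ABC pumps load cholesterol and phospholipid onto lipoproteins, or work inside peroxisomes, mitochondria and lysosomes. The comparison asks which of these transcripts differed in liver with squalene.

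Each pool was read on 1 array, so no test between groups can be made, and every ratio below is a difference between these particular pools. Values are MAS5 probe set signals on a linear scale, and ratios are log2 of squalene over control. Each gene was read on its brightest probe set, by mean log2 signal over both pools. A gene is termed brighter when that mean lay at or above its median over all probe sets, and dimmer otherwise. The array median signal was 41.3 in the squalene pool and 39.9 in the control pool. The 18 hybridization spike-ins had a median log2 ratio of -0.26, so scaling to them would raise every ratio by that amount. Apoe itself read 130.6 in the squalene pool and 141.0 in the control pool. All 7 hepatocyte markers tried were at or above the array median in both pools, and all 6 kidney markers and the 4 cholangiocyte markers with a probe set were below it in both.

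A log2 ratio of 0.5 was used to call a gene higher or lower. Among the 39 brighter members, transcripts of bile acid uptake and export, biliary sterol and phospholipid export and conjugate export lay inside that limit. The farthest from 0 among them were Slco1a4 (0.42) and Slco1a1 (-0.37). By that limit 4 brighter members were higher (Abcg1, Slc10a3, Abcc9 and Abcc8), 2 were lower (Slc22a5 and Abcf2) and 33 lay between. Over all 6902 brighter genes, 9.21% were higher and 8.08% lower, so the members' shares of 10.3% and 5.13% are near that background. The median log2 ratio was 0.03 over the brighter members and 0.01 over all brighter genes, and the median size of the ratio without its sign was 0.21 and 0.22. None of the 39 passed the submitters' screening limit of 1.5, which 0.362% of all brighter genes passed in either direction. The brighter members ranged from -0.71 to 0.66. Scaling to the spike-ins would give 8 higher and 0 lower. Abcb10, Abcc2, Abcc5 and Slco1a4 would join those called higher, and the calls for Slc22a5 and Abcf2 would end. That scaling raises every gene alike, and the share of all brighter genes it would call was not counted. Before it, the upper quartile of the log2 ratio was 0.21 over the brighter members and 0.23 over all brighter genes.

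**Figure D1:**
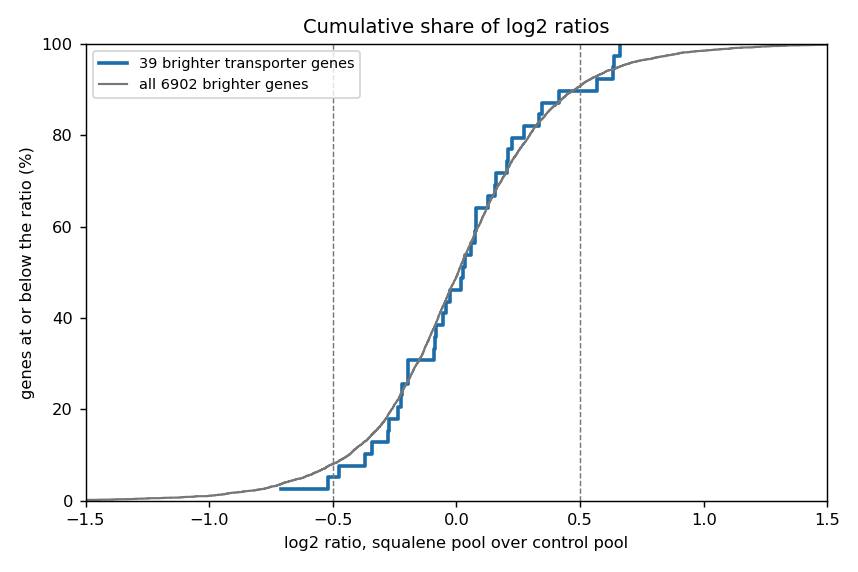
Cumulative share (%) of brighter genes at or below each log2 ratio (squalene over control), for the 39 brighter transporter genes and for all 6902 brighter genes. Dashed lines mark ratios of 0.5 and -0.5; the curves run close together, with medians of 0.03 and 0.01.

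Of the 23 members at or above the 75th percentile of mean signal, 0 were higher and Slc22a5 was the 1 that was lower. The background in that range was 4.87% higher and 3.75% lower. The 4 members called higher all lay below that range. They were also read on a single probe set each, so none has a second reading on these arrays.

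**Figure D2:**
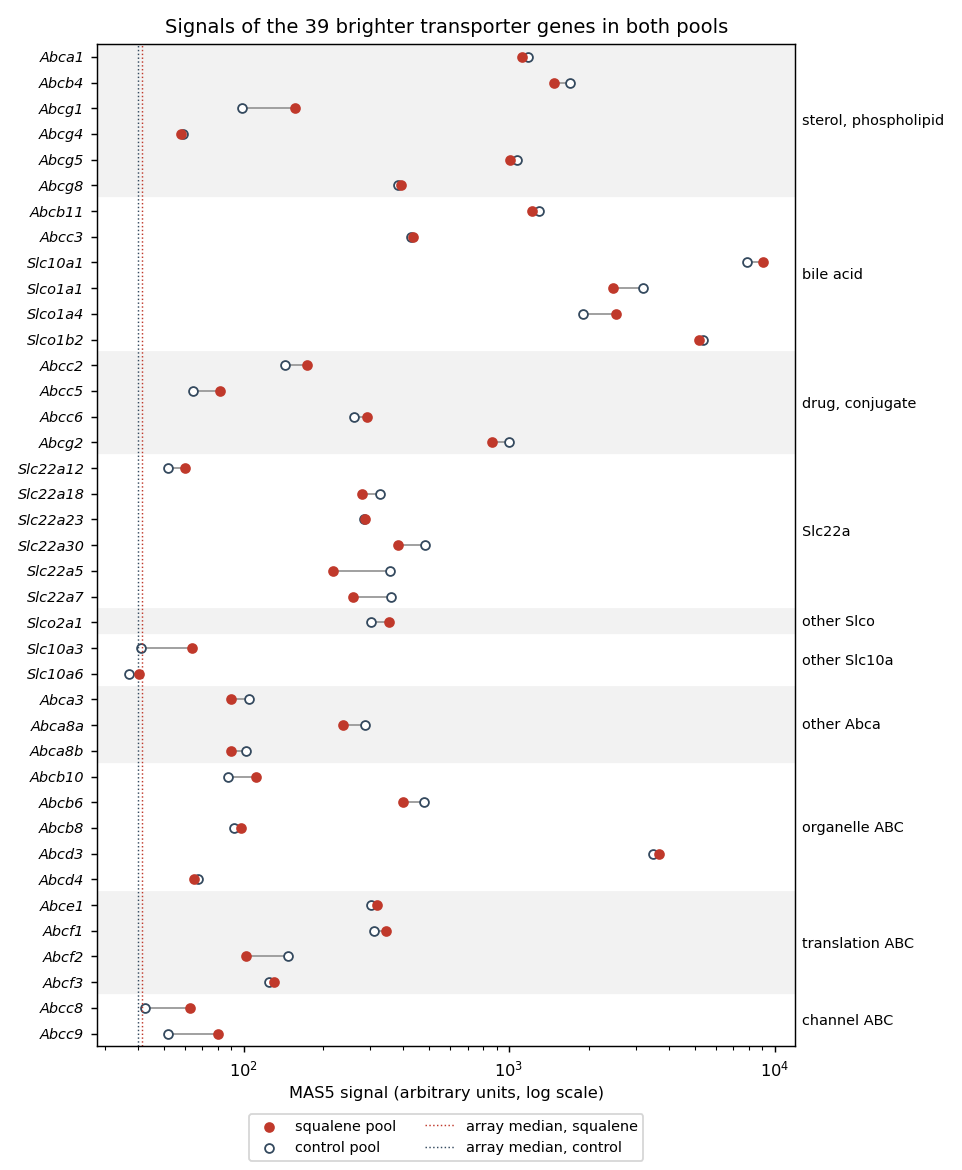
MAS5 signal (log axis) of the 39 brighter transporter genes in the squalene pool (filled) and the control pool (open), 1 array each, grouped by role, with the array medians as dotted lines. Most symbol pairs nearly overlap; Abcg1, Slc22a5, Slc10a3, Abcf2, Abcc8 and Abcc9 lie farthest apart.

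How far a single ratio can be read was judged from genes with several probe sets. Between a gene's main probe set and its others, the difference in log2 ratio had an SD of 1.96 when the other probe set was dim (4486 probe sets over all genes). The SD was 0.56 when the other lay between the median and the 75th percentile of mean signal (2061 probe sets), and 0.28 above that (1440). This is a spread of the difference between 2 probe sets, not between animals, and is only a rough guide to a single ratio. The ranges are those of the other probe set, and the main one was the brighter of the 2. The log2 ratios themselves, over all genes, had an SD of 0.48 between the median and the 75th percentile of mean signal. Above that their SD was 0.31.

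Of the brighter sterol and phospholipid exporters, Abcg1 was the 1 past the limit. Abca1, which moves cholesterol and phospholipid onto apolipoprotein A-I, had a signal of 1116 in the squalene pool against 1181 in the control pool (log2 ratio -0.08). Its other probe sets gave 0.30 (146.6 against 118.9) and -0.59 (43.6 against 65.5). The 3 readings of Abca1 thus lie on both sides of 0. Abcg1, which exports cholesterol toward high-density lipoprotein, read 156.3 in the squalene pool against 98.9 in the control pool. That is 1.58-fold higher, a log2 ratio of 0.66. The ratio is little more than the spread of 0.56 found where the other probe set of a gene had such a signal. Abcg4, a close relative of Abcg1 known mainly from brain, read 57.9 against 59.0.

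Abcg1 is also expressed by macrophages, and macrophage and Kupffer cell markers were lower in the same squalene pool. All 9 of the markers tried, all brighter, had ratios below 0. Of the 9, 6 (66.7%) were past -0.5, against 8.08% of all brighter genes. The summed signal of the 9 was 3575.1 in the squalene pool against 5505.4 in the control pool. With scaling to the spike-ins, Adgre1 alone would turn above 0, and only Lyz2, Msr1 and Marco would stay past -0.5. Clec4f, the Kupffer cell lectin, read 438.8 against 714.6, and Lyz2, the macrophage lysozyme, 384.2 against 808.8. In these bulk samples fewer cells of a type and less RNA per cell cannot be told apart, and the part these cells have in the Abcg1 or Abca1 signals was not tested.

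Abcg5 and Abcg8 form the heterodimer that secretes cholesterol and plant sterols into bile. Abcg5 read 1009.6 in the squalene pool against 1071.4 in the control pool (log2 ratio -0.09). Abcg8 read 392.3 against 382.7 (0.04). Both ratios are well inside the spread of 0.28 found where the other probe set of a gene had such a signal. The genes lie head to head, and their promoter windows (250 bases before to 50 after each start, from RefSeq, GRCm38.p6) overlap by 209 bases. The 109 bases between both starts are shown because a single short stretch precedes both members of this pair. They lie at chr17:84683012-84683120 and are written on the plus strand, that of Abcg8, and capitals mark a match to TATAAA that reads toward Abcg5.
Abcg5-Abcg8: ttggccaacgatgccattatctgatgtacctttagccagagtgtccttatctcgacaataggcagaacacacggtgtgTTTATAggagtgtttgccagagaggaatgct

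Abcb4, the canalicular flippase that delivers phosphatidylcholine to bile, read 1476.4 in the squalene pool against 1693.4 in the control pool (log2 ratio -0.20). Abca7, a relative of Abca1, was dim, with 52.9 against 11.5, and only its squalene signal lay above the array median. Of the 6 brighter members of this role, 1 was higher, 0 lower and 5 between, with a median log2 ratio of -0.05.

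The bile acid carriers had no brighter member past the limit. Slc10a1, the sodium-dependent uptake carrier of conjugated bile acids, read 9077.7 in the squalene pool against 7876.9 in the control pool, a log2 ratio of 0.20. Its second probe set gave 0.12 (5309.2 against 4886.2). Slco1b2, a sinusoidal carrier of bile acids and many drugs, read 5182.2 against 5388.5 (-0.06). The other 3 brighter probe sets of Slco1b2 gave -0.14, 0.42 and -0.39 and a dim one gave 0.50, so its readings lie on both sides of 0.

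Among the brighter members of the role, the largest ratios of either sign were in the same subfamily. Slco1a4, an organic anion carrier that also takes up cardiac glycosides, read 2524.8 in the squalene pool against 1892.4 in the control pool. This is 1.33-fold higher, a log2 ratio of 0.42 on its only probe set. Slco1a1, an organic anion carrier that predominates in male mouse liver, read 2464.5 against 3181.7, 1.29-fold lower. Its log2 ratio was -0.37, and its second probe set gave -0.36 (1258.0 against 1615.0). In size both ratios exceed the spread of 0.28 found where the other probe set lay above the 75th percentile of mean signal. Neither exceeds the SD of 0.46 between bright probe sets of a gene, nor the limit of 0.5. Slco1a4 and Slco1a1 are neighbouring genes, and the difference between their ratios was not tested.

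On the export side, Abcb11, the canalicular bile salt export pump, read 1216.3 in the squalene pool against 1296.3 in the control pool (log2 ratio -0.09). Abcc3, which exports bile acids and glucuronides back to blood, read 436.2 against 428.4 (0.03). Slc10a2, the ileal bile acid carrier, was below the array median in both pools, at 13.1 against 7.7. Slco1a5, a bile acid and organic anion carrier, was also dim, at 17.0 against 1.6. The median log2 ratio over the 6 brighter members of this role was -0.02, with 3 above and 3 below 0. No bile acid level or flux was measured.

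The bile acid receptor FXR (Nr1h4) is known to act through inverted repeats of the site AGGTCA, as upstream of Abcb11. The repeat was searched in the RefSeq promoter windows of 55 members (64 windows) as AGGTCA, any base, then TGACCT, on both strands, with at most 2 of its 12 fixed bases different. It was found in 2 members, Abcb11 and Slco1b2, and in 1.14% of all 32851 windows. In each of them the closest match differed at 1 of 12 bases, and it began 63 bases before the start in Abcb11 and 88 before it in Slco1b2. The 250 bases before each start are shown because both genes are bile acid carriers with a match and ratios near 0, and capitals mark the closest match. The Abcb11 window is chr2:69342617-69342866 on the minus strand and that of Slco1b2 is chr6:141629268-141629517 on the plus strand (GRCm38.p6), each written 5′ to 3′ along its gene.
Abcb11: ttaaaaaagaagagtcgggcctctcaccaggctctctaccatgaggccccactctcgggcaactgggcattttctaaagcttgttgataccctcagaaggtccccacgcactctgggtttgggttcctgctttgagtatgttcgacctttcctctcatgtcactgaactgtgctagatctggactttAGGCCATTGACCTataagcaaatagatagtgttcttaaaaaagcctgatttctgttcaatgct
Slco1b2: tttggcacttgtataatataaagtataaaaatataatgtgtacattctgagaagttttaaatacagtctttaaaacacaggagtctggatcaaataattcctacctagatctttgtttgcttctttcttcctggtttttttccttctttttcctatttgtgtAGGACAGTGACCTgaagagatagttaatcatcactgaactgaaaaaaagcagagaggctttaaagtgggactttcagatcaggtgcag

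Other letters were searched in the same windows as a description. A direct repeat of AGGTCA spaced by 1 base matched in Slco1a1, and in 3.86% of all windows. Spaced by 4 bases, it matched in Abcc10 and Slc22a27 and in 3.02% of all windows. The sequence CACGTG, the clock E-box, was found in 6 members, Abca1, Abca8a, Abca8b, Abcf1, Slc22a4 and Slco1c1, and in 7.15% of all windows. The letters TATAAA were found in 16 of the 64 member windows, belonging to 14 members, and in 13.6% of all windows.

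Of 9 transcription factors that sense bile acids, sterols and xenobiotics or act with such factors, all brighter, 0 passed the limit in either direction. Over all brighter genes 9.21% were higher and 8.08% lower. After scaling to the spike-ins, which raises every gene alike, 4 of the 9 (Nr0b2, Ppara, Nr5a2 and Nr1h4) would be higher. The share of all brighter genes that would be higher after that scaling was not counted. Nr1h4 read 820.6 in the squalene pool against 685.4 in the control pool (log2 ratio 0.26). Nr0b2, the repressor that FXR induces, read 542.3 against 387.2, and its ratio of 0.49 was the largest of the list. Nr1h3, the oxysterol receptor LXR alpha, read 263.5 against 265.8. The xenobiotic receptors Nr1i2 (169.5 against 177.5) and Nr1i3 (722.7 against 792.6) had ratios of -0.07 and -0.13. A second probe set of Nr1i2 gave 0.38. Ppara, the fatty acid receptor, read 944.3 against 734.5 (0.36). Nr5a2, an activator of bile acid synthesis genes, read 530.7 against 432.6 (0.29), and its other probe sets gave -0.01, 0.66 and, where dim, -2.60. Rxra read 724.9 against 690.0 (0.07), with 0.12 on its second probe set. Hnf4a read 3564.5 against 3891.8 (-0.13), while its other probe sets gave 0.32, 0.42 and 0.39.

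The exporters of drugs and conjugates with a bright signal lay between the limits. Abcc2, the canalicular pump of bilirubin glucuronide and other conjugates, read 173.5 in the squalene pool against 143.6 in the control pool (log2 ratio 0.27). Abcg2, the breast cancer resistance protein, read 862.1 against 1003.1 (-0.22). Abcc6, a hepatic protein needed for ATP release and for keeping soft tissue free of mineral, read 291.2 against 260.3 (0.16). Abcc5, which exports cyclic nucleotides, read 81.6 against 64.8 (0.33), and its 6 other probe sets, all dim, ran from -1.37 to 2.69. The P-glycoprotein genes were below the array median in both pools. Abcb1a read 7.2 against 32.3 on 1 probe set and 12.3 against 4.3 on the other, in opposite directions. Abcb1b read 1.4 against 12.9. Abcc1, which exports glutathione conjugates, and Abcc10 were dim too, with log2 ratios of 0.07 and -0.30.

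The Slc22a carriers included the lowest ratio among the brighter members. Slc22a5, the carnitine carrier, read 217.8 in the squalene pool against 356.1 in the control pool, 1.64-fold lower (log2 ratio -0.71). Its second probe set read 99.1 against 62.7, a log2 ratio of 0.66. The probe sets of Slc22a5 thus contradict each other, and which of them reflects the transcript was not tested. Slc22a7, an organic anion carrier of liver and kidney, read 258.1 against 358.4 on its only probe set (-0.47), just inside the limit.

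Slc22a30, a member of the organic anion carrier cluster, read 381.3 in the squalene pool against 483.3 in the control pool (log2 ratio -0.34). Slc22a18, an imprinted carrier gene, read 278.2 against 327.9 (-0.24), and 233.2 against 156.1 (0.58) on its second probe set. Slc22a18 is thus a second Slc22a gene whose bright probe sets differ in sign. Slc22a23, an orphan carrier, read 287.3 against 283.8, and Slc22a12, the urate exchanger of kidney, 60.0 against 51.9. The median log2 ratio of the 6 brighter Slc22a genes was -0.29 with the main probe sets, -0.05 with the mean of each gene's probe sets and -0.03 after scaling to the spike-ins.

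The remaining 12 Slc22a genes were dimmer. The renal carriers Slc22a6 (3.2 against 24.2), Slc22a8 (4.5 against 24.1) and Slc22a2 (1.5 against 2.9) were below the array median in both pools, as were all 6 kidney markers. The second probe set of Slc22a6 ran the other way, at 10.7 against 1.7. Slc22a17, a receptor for lipocalin 2, had the lowest ratio of all members, with 4.0 in the squalene pool against 52.1 in the control pool, and only the control signal lay above the median. The ergothioneine carrier Slc22a4 (2.4 against 13.3) was dim, as were Slc22a13 (7.9 against 14.3) and Slc22a22 (21.1 against 6.6). Probe sets of the near-identical Slc22a genes of 1 cluster (Slc22a19, Slc22a26, Slc22a27, Slc22a29 and Slc22a30) may share transcripts, and 1 further probe set assigned to both Slc22a29 and Slc22a30 was left out.

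**Figure D3:**
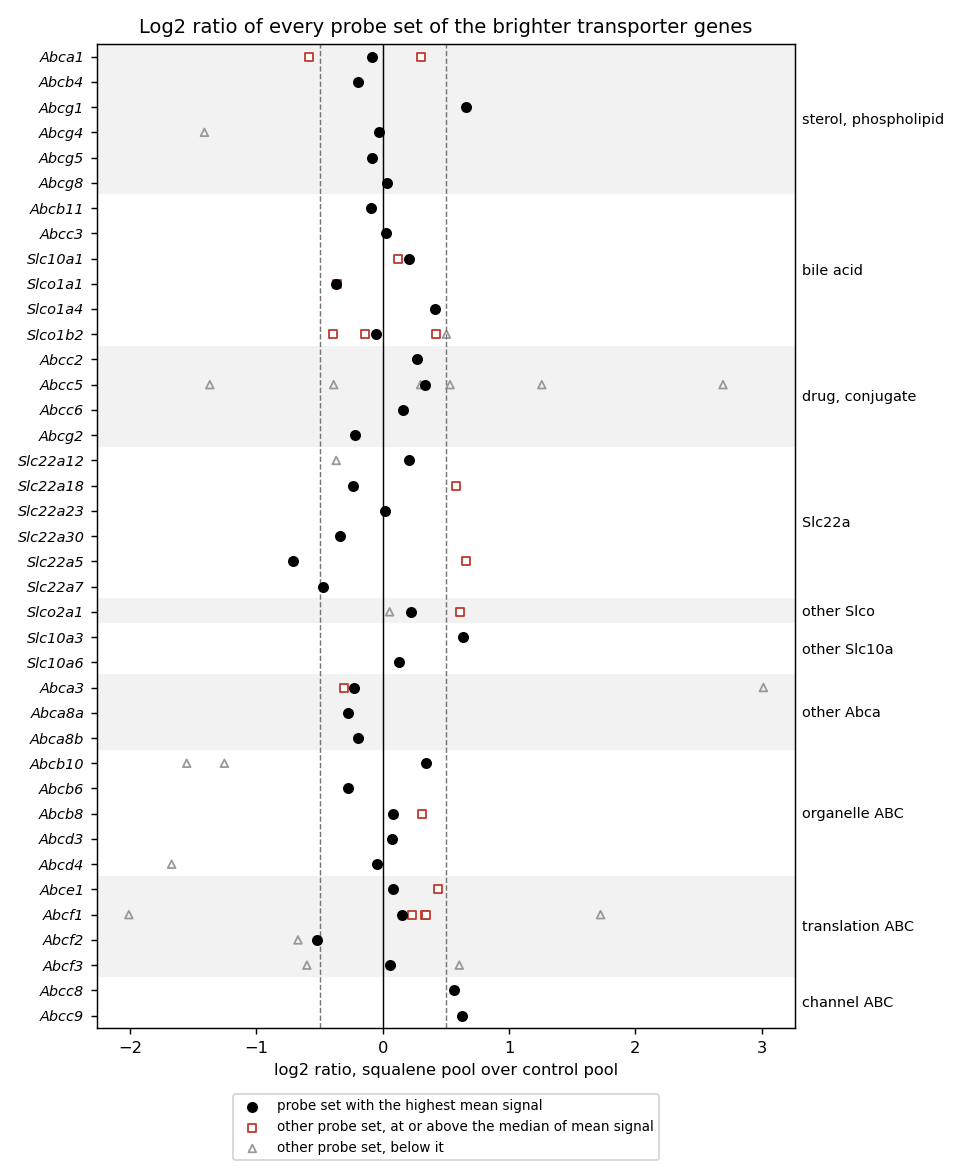
Log2 ratio of squalene over control for every probe set of the 39 brighter transporter genes, grouped by role. Black dots are the probe set with the highest mean signal, red squares other probe sets at or above the median of mean signal, and grey triangles dimmer ones. Dashed lines mark 0.5 and -0.5. Slc22a5, Slc22a18, Abca1 and Slco1b2 have bright probe sets on both sides of 0.

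Among the brighter members, 11 had 1 or more further bright probe sets, 16 in all. Of these 12 had the sign of the main probe set and 4 the opposite sign, and 13 were within 0.5 of its log2 ratio. The 3 that differed by more belong to Slc22a5, Slc22a18 and Abca1.

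Of the other carriers, Slco2a1, the prostaglandin transporter, read 352.0 in the squalene pool against 301.2 in the control pool (log2 ratio 0.22), and its second bright probe set gave 0.61 (99.0 against 64.7). Slc10a3, an orphan relative of the bile acid carriers, read 64.0 against 41.1, 1.56-fold higher (0.64), with the control signal just above the array median. Slc10a6, a carrier of sulfated steroids, read 40.4 against 37.0 and lay below the median in both pools.

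The Abca genes not listed here under sterol and phospholipid export were all slightly below 0 where bright. For 2 of the 3 that sign would turn with scaling to the spike-ins. Abca8a read 237.6 in the squalene pool against 287.7 in the control pool (log2 ratio -0.28). Its neighbour Abca8b read 89.6 against 102.6 (-0.20). Abca3, known for loading surfactant lipid into lamellar bodies in lung, read 89.7 against 104.9 (-0.23), with -0.30 on its second bright probe set and 3.01 on a dim one. Abca2 (40.5 against 15.4) and the retinal gene Abca4 (9.9 against 3.0) were dim.

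ABC transporters of organelles were between the limits wherever bright. Abcd3, which imports branched-chain acyl-CoA and bile acid intermediates into peroxisomes, read 3665.7 in the squalene pool against 3482.8 in the control pool (log2 ratio 0.07). Abcd4, part of the lysosomal cobalamin route, read 65.3 against 67.3 (-0.04). Abcb6, a porphyrin-linked transporter, read 397.0 against 479.7 (-0.27). The mitochondrial members Abcb10, linked to heme synthesis, and Abcb8 read 111.0 against 87.4 (0.34) and 97.5 against 92.4 (0.08). Dim probe sets of Abcb10 gave -1.55 and -1.25. The dim members were Abcd2, a peroxisomal relative of Abcd3, at 1.4 against 14.6, and the lysosomal peptide transporter Abcb9, at 41.3 against 22.6 (with 3.8 against 9.4 and 3.3 against 3.4 on its other probe sets).

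The ABC proteins of translation carry no membrane domain. Abce1, which splits ribosomes for recycling, read 318.7 in the squalene pool against 301.5 in the control pool (log2 ratio 0.08), and 0.44 on its other probe set. Abcf1, which works in initiation, read 345.4 against 310.0 (0.16), and its 3 other bright probe sets gave 0.23 to 0.34. Dim probe sets of Abcf1 gave 1.72 and -2.01. Abcf2 read 102.5 against 147.0, 1.43-fold lower (-0.52), and its other, dim probe set gave -0.67. Abcf3 read 129.9 against 124.7 (0.06), with 0.61 and -0.60 on its dim probe sets. The ratio of Abcf2 lies inside the spread of 0.56 found where the other probe set of a gene had such a signal.

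The sulfonylurea receptors, regulatory subunits of ATP-sensitive potassium channels, were both called higher at low signal. Abcc9 read 80.4 in the squalene pool against 51.9 in the control pool, 1.55-fold higher (log2 ratio 0.63). Abcc8 read 62.8 against 42.4, 1.48-fold higher (0.57). Both ratios are close to the spread of 0.56 found where the other probe set of a gene had such a signal.

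**Figure D4:**
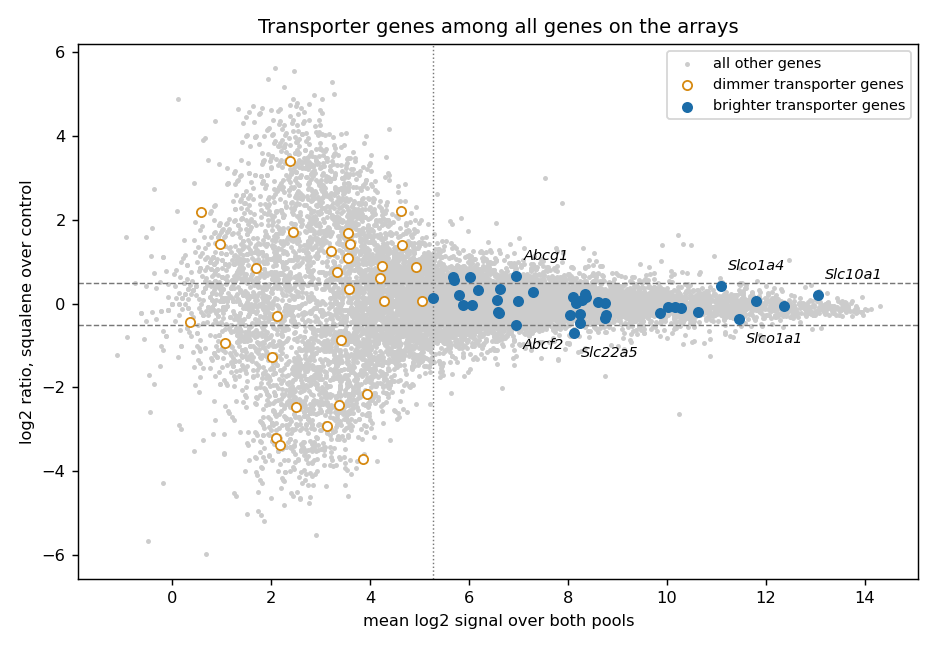
Log2 ratio of squalene over control against mean log2 signal over both pools, for 39 brighter (filled) and 30 dimmer (open) transporter genes among all other genes on the arrays (grey). The dotted line marks the median of mean signal and the dashed lines 0.5 and -0.5; ratios fan out at low signal, where all members past 1.5 in either direction lie.

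The 30 dimmer members scattered widely, like other genes of that signal. Of them 15 were higher, 10 lower and 5 between. Over all 5491 dimmer genes 37.0% were higher and 34.5% lower. Past 1.5 in either direction lay 12 of the 30, or 40.0%, against 33.8% of all dimmer genes. Both signals were below the array median for 28 of the 30, the exceptions being Abca7 and Slc22a17. The 6 dimmer Slco genes outside the bile acid list (Slco1a6, Slco1c1, Slco3a1, Slco5a1, Slco6b1 and Slco6c1) were all on the higher side, with signals of 3.2 to 25.9 in the squalene pool against 0.7 to 13.8 in the control pool. Other probe sets of Slco3a1 gave -4.87 and -0.77. Abcg3 read 33.6 against 32.4. The spread of 1.96, found where the other probe set of a gene was dim, exceeds most ratios of the dimmer members.

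Position in the genome was compared by gene order in RefSeq. There were 9 runs of members next to each other among protein-coding genes, holding 23 members. Abcb4 was above the array median in both pools while its neighbours Abcb1a and Abcb1b were below it in both. Slc22a5 was above and its neighbours Slc22a21 (2.6 against 6.3) and Slc22a4 below. Slco1b2, Slco1a4 and Slco1a1 were above the median in both pools, and Slco1c1, Slco1a5 and Slco1a6 below it in both. Abcg5 with Abcg8 and Abca8a with Abca8b were above it in both pools as pairs, and the run of Slc22a19, Slc22a26 and Slc22a27 was dim throughout.

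Partners and relatives under other symbols were read for comparison. Of 8 bright genes of that list, 0 were higher and 2 lower. Slc47a1, which extrudes organic cations, read 609.2 in the squalene pool against 504.4 in the control pool (log2 ratio 0.27). It alone of the 8 would be higher after scaling to the spike-ins, with the share over all brighter genes not counted. The scaffold Pdzk1 read 260.0 against 322.0 (-0.31), and Rdx, which anchors canalicular pumps to actin, 1653.9 against 1509.7 (0.13). The 2 lower genes were Ezr, a relative of Rdx, at 81.4 against 138.5 (-0.77, and -0.81 on its other probe set), and Tap1. Tap1, an ABC peptide transporter of antigen presentation, read 71.3 against 121.4 (-0.77), while its 3 dim probe sets lay between 0.80 and 1.86. Slc51a, the basolateral bile acid exporter, was dim, at 20.9 against 5.1.

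Clock transcripts also differed in signal between the same pools, and not all their probe sets ran the same way. Dbp read 1546.7 in the squalene pool against 589.2 in the control pool (log2 ratio 1.39), with 1.11 on its second probe set. Per3 read 100.6 against 16.5 (2.61), and its other probe sets gave 1.02 and -0.31. Per2 read 116.4 against 28.3 (2.04) on its main probe set and 5.9 against 31.4 (-2.41) on a second one. Nr1d1 read 96.2 against 74.8 (0.36), and Arntl, a dimmer gene, 11.0 against 66.2 (-2.59). The sources used here do not give the hour of collection, and its part in the transporter ratios was not tested.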

How the data were processed

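Liver RNA was measured on Affymetrix mouse arrays, 1 per pool. The authors deposited linear-scale intensity values, 1 per probe set, and MAS5 is named in the submitters' processing notes. The 2% trimmed mean of both arrays was 200.1, as seen in the values. The sources used here do not give the scaling target, software version, genome build or number of animals per pool. The arrays' number limits the precision. Groups follow the sample titles.

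Of 22690 probe sets, 64 were array controls, 20380 had 1 gene symbol in the platform annotation, 691 several and 1555 none. All 69 members were found by gene ID in the RefSeq table and 0 symbols differed. Ratios used no pseudocount. No p-values were computed, since each group has 1 array. The members and lists were chosen with earlier results of these data known. Every brighter member is named with its signals, others by role. Roles and functions are background. Counting was tested on simulated data with ratios set past the limit, which checks the counting steps and not the calls made here. Promoter sequences are RefSeq's (GRCm38.p6). Tools were Python 3.11.15, numpy 2.4.6, pandas 2.3.3, scipy 1.17.1 and matplotlib 3.10.9. Alternatives were other filters, floors, scalings, limits, a pseudocount of 3 and other probe set choices.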

Additional observations from a re-analysis of the deposited data

How the results depend on the processing

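Counts of higher and lower brighter members were 4 and 2. With no filter they were 19 and 12 of 69, or 27.5% and 17.4%, against 21.5% and 19.8% of all 12393 genes. When filtered at the 75th percentile they were 0 and 1 of 23. After scaling to the spike-ins they were 8 and 0, with the share over all brighter genes not counted. At limits of 1 and of 1.5 they were 0 and 0. With plain-suffix probe sets 1 was higher, and averaging each gene's probe sets made 4 lower. Quantile normalization, floored signals, the pseudocount and both signals at or above the median left both counts within 1.5 times.

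The median log2 ratio of the brighter members was 0.03, against -0.082 when filtered at the 75th percentile and 0.28 after scaling to the spike-ins. That scaling, which adds 0.26 to every ratio by construction, gave role medians of 0.20 (sterol and phospholipid), 0.24 (bile acid), 0.48 (drug and conjugate) and -0.031 (Slc22a). With no filter the bile acid median was 0.12, the drug median -0.072 and the Slc22a median -0.46. The drug median, 0.22 over 4 genes, was -0.028 both at the 75th percentile and with plain suffixes. The Slc22a median was -0.052 with averaged probe sets. Of 228 single ratios recomputed, 8 moved by more than 0.46, the SD between bright probe sets of a gene. Among the called ratios, 0 changed sign, and Slc22a5 came to -0.02 when averaged. Many of the 228 could not move that far, so these counts do not show how stable the ratios are. Scaling to the spike-ins shifts each by 0.26 and cannot reverse a called ratio. Flooring cannot alter the 38 members with no signal under the floor. Averaging cannot alter the 21 with 1 probe set, which include 4 called ones. With 1 array per group no replicate could be left out.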
